A study of Mus musculus with 3 samples.

Results

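Interferon-stimulated genes were followed in mouse embryonic fibroblasts (MEF) treated with n-butylidenephthalide (BP), a compound of Angelica sinensis. The set holds 38 genes of 35696 gene names on the array, picked by name as genes of type I interferon induction and response. They were proposed with earlier ratios of these arrays in view, those of BP40 against BP10 included, so their ratios below describe the set and test nothing. MEF are primary cells grown from minced mid-gestation C57BL/6 embryos without head, legs and internal organs. Total RNA was labeled with Cy3 and hybridized to 1 array per condition, 3 arrays in all: MEF control, MEF with 10 µg/ml BP (BP10) and MEF with 40 µg/ml BP (BP40). The labels record no treatment for the control, whereas the paper calls it DMSO, the solvent of BP, and the time in BP before RNA extraction is not given in the sources used here. With 1 culture per condition no p-value is possible, and a ratio compares 2 arrays.

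Type I interferon is a secreted cytokine that a cell releases after its sensors detect foreign or misplaced nucleic acid. It binds the receptor chains IFNAR1 and IFNAR2, whose kinases JAK1 and TYK2 phosphorylate STAT2. With IRF9 it forms part of a complex that binds the interferon-stimulated response element (ISRE) in promoters of antiviral genes. Fibroblasts are a classical source and target of interferon beta, and many of these genes keep a basal level through low constitutive signaling.

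The array software gives each spot a background-corrected intensity (the processed signal), an error for it and a flag for spots well above background. No spot was saturated. Gene spots well above background made up 68.3% to 81.7% of each array, with the highest share on the control, and the 75th percentile of their signal fell from 1744 in the control to 1402 at BP10 and 1214 at BP40. Log2 signal was taken relative to that percentile, and a log2 ratio is a difference of such levels. A gene was called higher or lower at 2-fold, a log2 ratio of at least 1, provided that either array compared showed its probe well above background. The control was scanned in a separate session from BP10 and BP40, and in a ratio to the control the session cannot be told apart from BP. BP10 and BP40 were scanned together. Errors after ± are those of the array software and cover the array measurement only. The ratios of 2 probes of 1 gene had a median SD of 0.29 at BP10 and 0.22 at BP40 against control, and 0.21 between the doses.

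All 38 members had a probe, 52 probes in all. On all 3 arrays 34 members were well above background, and Mx1, an antiviral GTPase, was so on none. Of the markers of fibroblasts, 12 of 12 were well above background on each array. In bulk RNA, fewer cells of a type and less RNA per cell cannot be told apart.

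Scaled on the 75th percentile, most members were lower at BP10 than in the control and near or slightly above it at BP40, where scaling on spike-in RNA turned their median below the control. At BP10, 9 members were at least 2-fold lower than in the control and 0 were higher, beside 12% lower and 3.22% higher among the 30716 genes above background on either array. Scaled on the median of the gene probes, only Rtp4 and Mx2 remained lower by 2-fold, beside 5.12% of all genes, so these 2 are near that share. Scaled on E1A spike-in probes 5 members remained, beside 8.57% of all genes. With another background correction (normexp) 5 also did, beside 3.25%. Scaled on the 75th percentile, the median log2 ratio of the members was -0.60, against -0.23 for all genes. At BP40, 1 member was higher and 1 lower than in the control, beside 3.12% and 10.5% of genes, with a member median of 0.19 against -0.11. Between the doses, 11 members were higher at BP40 than at BP10 and 0 were lower, beside 2.59% and 2.41% of genes. The member median was 0.64 against 0.06. Of the 38 member ratios 34 were above 0, dim Mx1 included, where all genes had 20584 above 0 and 14905 below. Of the 34 members well above background on all arrays, 22 (64.7%) had the order BP10, control, BP40 from low to high, an order seen in 18.6% of 25031 such genes. Both ratios to the control share the control array, and both ratios with BP10 share the BP10 array, so the 3 comparisons are not independent.

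**Figure D1:**
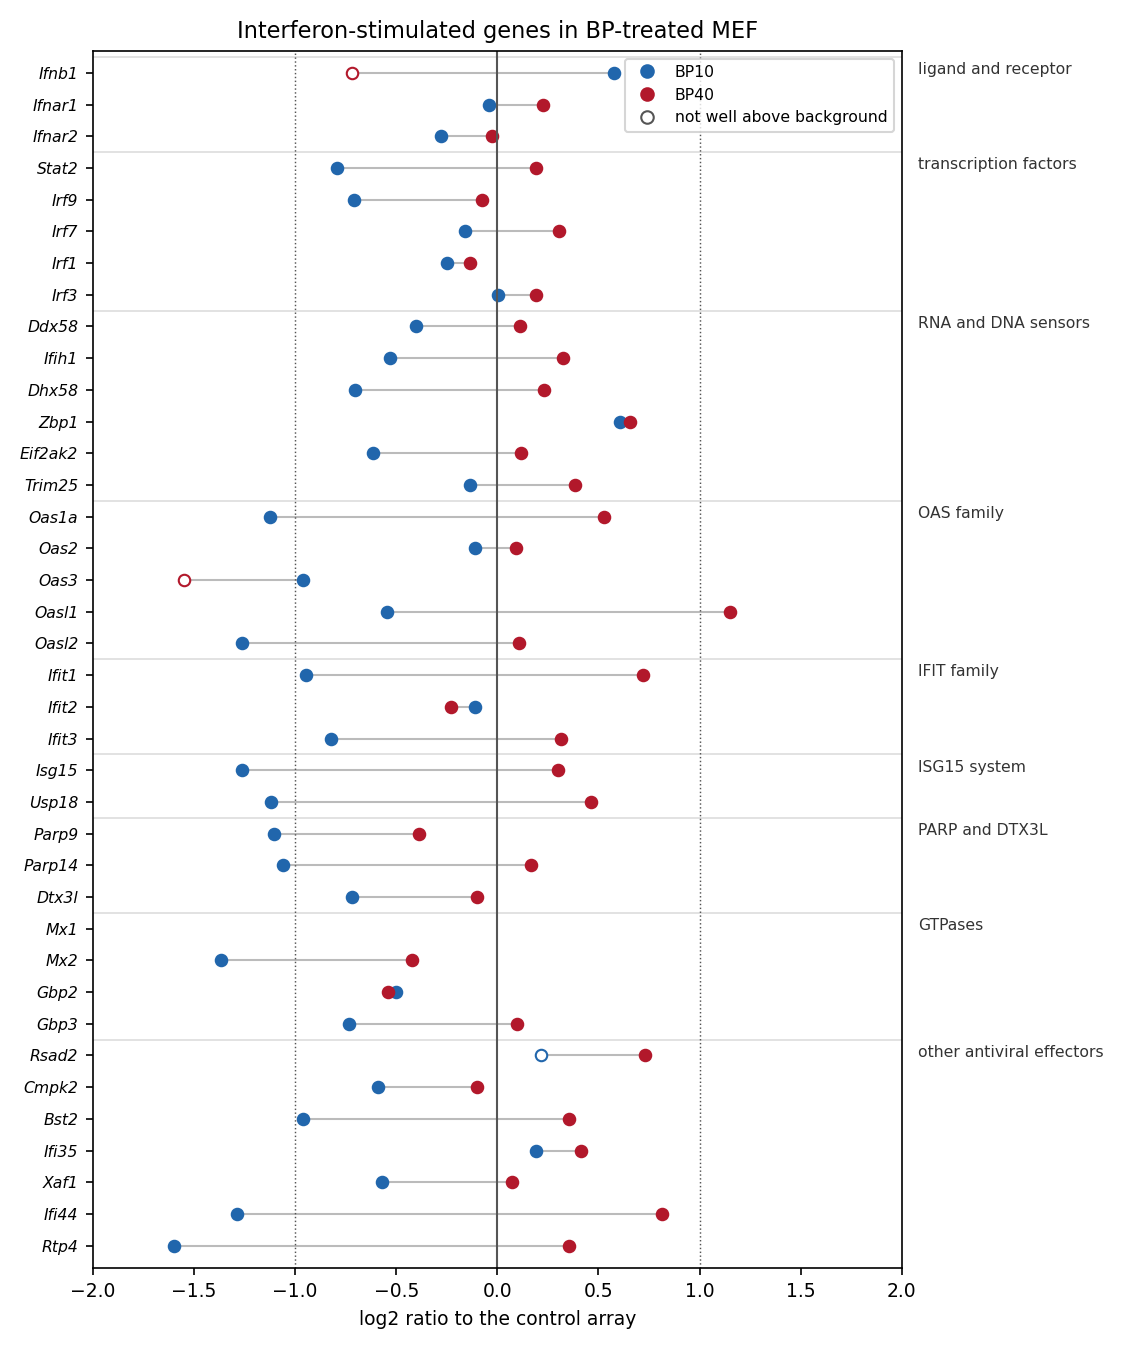
Log2 ratio to the control array (x axis) of each member (y axis, grouped by role) at BP10 (blue) and BP40 (red). Open circles mark arrays where the probe was not well above background, dotted lines mark 2-fold, and Mx1 has no point because no array showed it above background. The blue points lie left of the red ones for most genes, with Rtp4 at -1.60 and 0.35 and Ifi44 at -1.29 and 0.81.

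These values depended on the scaling. Scaled on the median of the gene probes, the member medians against the control were -0.27 at BP10 and 0.54 at BP40, where all genes had 0.11 and 0.23. On this scale 5 members were called higher for BP40 against control, beside 6.87% of all genes. The E1A probes, which read spike-in RNA and no mouse gene, were brighter relative to the gene spots on the BP40 array, with a median log2 ratio of 0.82 against the control and 0.81 against BP10 over 7 bright probes. The amounts of spike-in RNA added are not given in the sources used here. Scaling used the median E1A level of each array, which differs by 0.79 and 0.93 in these comparisons. On it, the median of all genes moved to -0.90 at BP40 against control and -0.87 against BP10, and the member medians to -0.60 and -0.30, so both medians turned negative. The member median still lay above that of all genes in both. With E1A scaling only Ifi44 and Rtp4 were called higher at BP40 than at BP10, and 3 members were lower. Among all genes 0.45% were higher and 33.8% lower. The higher and lower calls below are therefore relative to the other genes on the array.

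**Figure D2:**
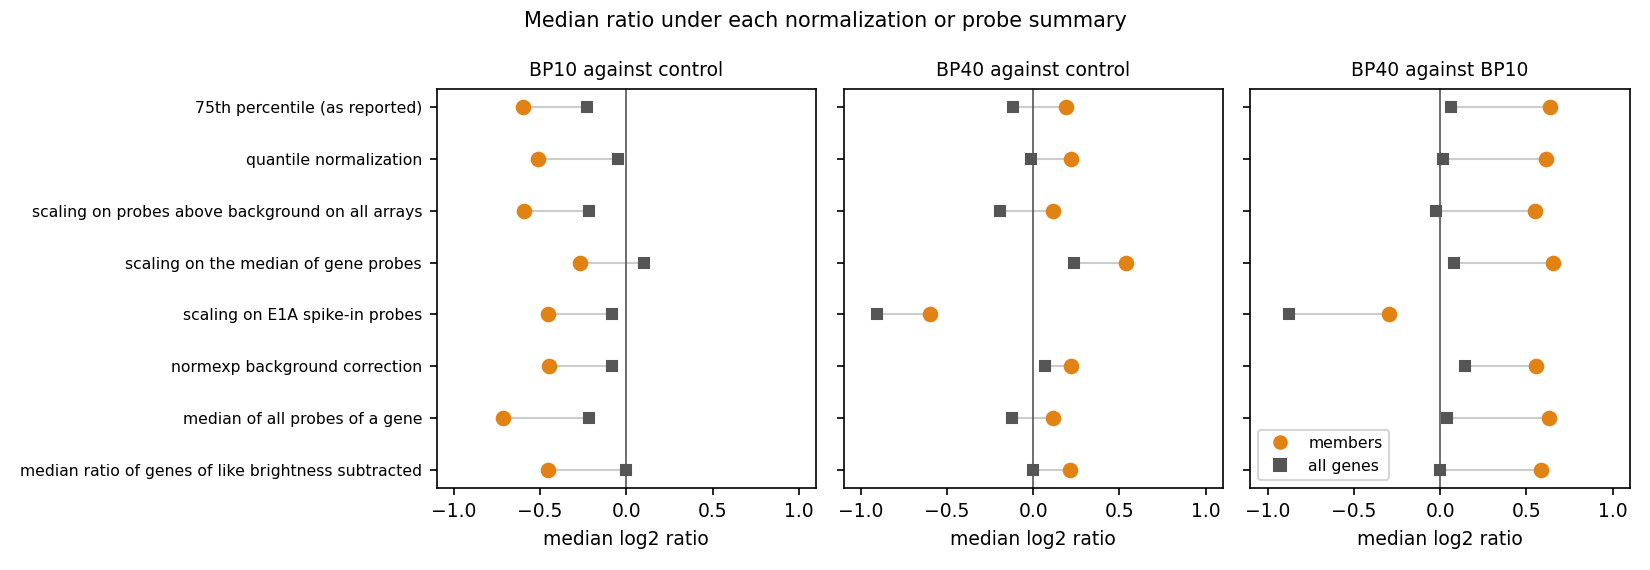
Median log2 ratio (x axis) of the members (circles) and of all genes (squares) in each comparison (panels), under each normalization or probe summary (y axis). The circles lie left of the squares at BP10 against control and right of them in both other comparisons, also where E1A scaling moved the members to -0.60 and -0.30.

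To show what members share in sequence, the promoters of 6 are given as 300 bases from 250 before to 50 after the start of transcription, 5′ to 3′ on the strand of the gene, from RefSeq on GRCm38.p6. Capitals mark the ISRE core, spelled GAAA, 2 bases of any kind and GAAA again on either strand (TTTC, 2 bases and TTTC when read on the other), overlapping matches included. Isg15, Ifit1, Oas1a and Bst2 have matches and were called higher at BP40 than at BP10, Oasl2 was called higher without a match, and Irf3, a factor that acts before interferon is made, is shown as a member without a match and without a call.
Isg15, chr4:156200769-156201068, minus strand: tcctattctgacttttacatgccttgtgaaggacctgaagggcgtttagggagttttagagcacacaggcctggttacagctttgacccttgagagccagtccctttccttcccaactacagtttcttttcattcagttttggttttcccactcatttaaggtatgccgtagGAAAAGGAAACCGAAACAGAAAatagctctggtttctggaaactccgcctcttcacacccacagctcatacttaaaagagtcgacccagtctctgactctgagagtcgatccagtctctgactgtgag
Ifit1, chr19:34640639-34640938, plus strand: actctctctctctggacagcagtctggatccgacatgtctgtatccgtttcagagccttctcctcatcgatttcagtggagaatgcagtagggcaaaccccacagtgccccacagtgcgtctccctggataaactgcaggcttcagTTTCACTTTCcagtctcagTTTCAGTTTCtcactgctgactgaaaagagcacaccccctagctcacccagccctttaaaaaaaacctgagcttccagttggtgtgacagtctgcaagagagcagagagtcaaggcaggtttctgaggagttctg
Oas1a, chr5:120907476-120907775, minus strand: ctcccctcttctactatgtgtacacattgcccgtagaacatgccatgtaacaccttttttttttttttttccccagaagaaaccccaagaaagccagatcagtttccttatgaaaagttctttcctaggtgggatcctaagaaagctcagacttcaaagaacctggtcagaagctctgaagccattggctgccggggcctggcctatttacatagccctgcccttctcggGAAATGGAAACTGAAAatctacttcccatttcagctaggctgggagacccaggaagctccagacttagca
Bst2, chr8:71537423-71537722, minus strand: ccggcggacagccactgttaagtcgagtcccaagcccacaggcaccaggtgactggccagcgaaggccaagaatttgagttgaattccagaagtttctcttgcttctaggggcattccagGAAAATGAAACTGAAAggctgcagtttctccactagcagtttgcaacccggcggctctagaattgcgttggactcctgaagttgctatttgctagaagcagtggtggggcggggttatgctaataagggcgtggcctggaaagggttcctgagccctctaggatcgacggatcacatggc
Oasl2, chr5:114896684-114896983, plus strand: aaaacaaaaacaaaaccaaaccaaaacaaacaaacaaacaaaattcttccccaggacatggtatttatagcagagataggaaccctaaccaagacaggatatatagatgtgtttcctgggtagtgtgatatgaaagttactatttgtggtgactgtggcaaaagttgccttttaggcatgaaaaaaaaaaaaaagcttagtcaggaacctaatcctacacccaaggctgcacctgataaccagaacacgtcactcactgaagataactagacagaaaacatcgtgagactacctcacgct
Irf3, chr7:44997398-44997697, plus strand: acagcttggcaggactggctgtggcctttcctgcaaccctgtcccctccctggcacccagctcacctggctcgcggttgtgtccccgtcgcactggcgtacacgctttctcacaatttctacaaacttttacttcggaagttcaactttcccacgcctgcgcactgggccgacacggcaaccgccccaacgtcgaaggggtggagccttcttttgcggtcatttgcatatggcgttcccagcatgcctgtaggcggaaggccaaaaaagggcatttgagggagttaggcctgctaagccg

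In Isg15 3 overlapping cores run from base -78 to -57 before the start. In Ifit1 a pair of cores on the other strand lies at -104 to -95 and at -85 to -76, in Oas1a 2 overlapping cores at -20 to -5, and in Bst2 2 at -130 to -115. The promoter table held 29 of the 38 members. The core was in the window of 13 of these 29 (44.8%), against 1079 of 27025 genes (3.99%). The GAS element bound by STAT dimers, spelled TTCNNNGAA, which reads the same on both strands, was in 8 of 29 members (27.6%) and 9.55% of all genes. The 13 members with an ISRE core had a median log2 ratio of 0.86 for BP40 against BP10 and -0.79 for BP10 against control, and the 16 without one 0.48 and -0.26. Members called higher at BP40 than at BP10 were found on both sides, 5 with a core and 3 without. Ifi44 and Oasl1 were, with Oasl2, the 3 without a core, and a match is a description of letters and not a measured site. For the GAS element the medians ran the other way. The 8 members with it had 0.26 for BP40 against BP10 and -0.26 for BP10 against control, and the 21 without it 0.63 and -0.59.

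**Figure D3:**
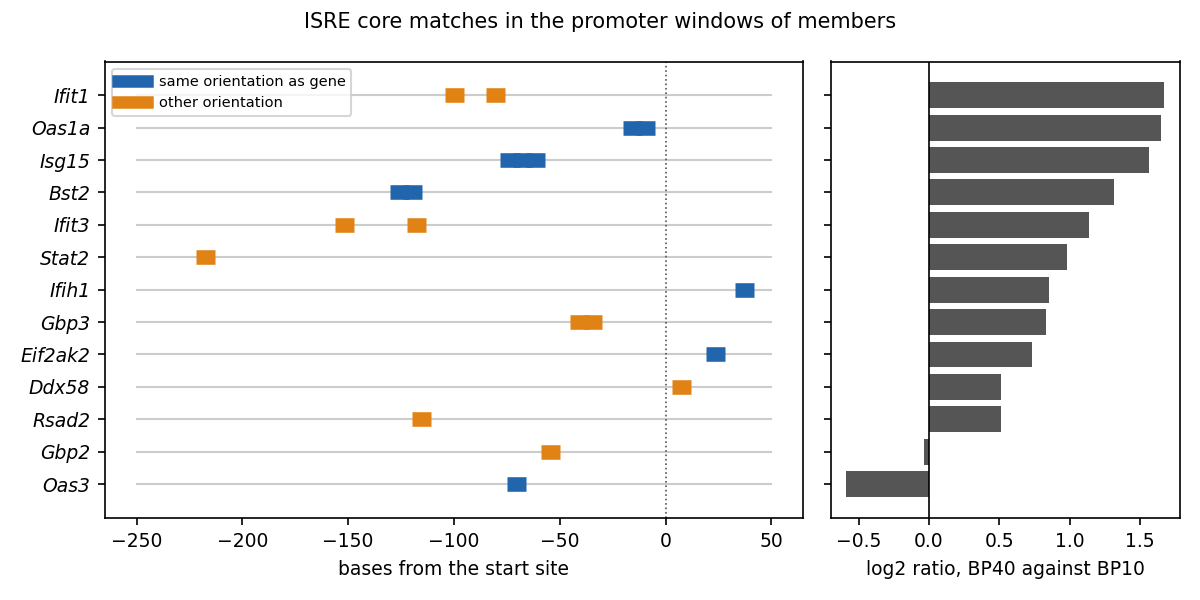
Left, position of each ISRE core (boxes, x axis in bases from the start site) in the promoter window of the 13 members that hold one, blue in the orientation of the gene and orange in the other. Right, log2 ratio of BP40 against BP10 of the same gene, from 1.67 in Ifit1 to -0.59 in Oas3, whose probe was not well above background at BP40.

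Ligand and receptor genes were not called in any comparison. Ifnb1, which encodes interferon beta, had a processed signal of 48.8 ± 9.0 in the control, 58.4 ± 10.8 at BP10 and 20.6 ± 8.31 at BP40, where it was not well above background. Its highest signal was thus on the BP10 array, where most other members were lowest, but all 3 values were dim. For BP40 against BP10 its measured log2 ratio was -1.30, and against the lowest signal well above background on that array the difference was at least 1.38-fold. Ifnar1 had signals of 5774, 4506 and 4708 in control, BP10 and BP40, and Ifnar2 11875, 7871 and 8132. Their log2 ratios lay between -0.28 and 0.27 in the 3 comparisons, and the 2 further probes of Ifnar1 lay between 0.01 and 0.35.

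Of the 5 transcription factors, Stat2 and Irf9 of the ISRE-binding complex moved most. Stat2 had signals of 6652, 3086 and 5288 in control, BP10 and BP40, a log2 ratio of -0.79 ± 0.20 at BP10 against control and 0.98 ± 0.20 at BP40 against BP10, just under the threshold. Irf9 had signals of 5557, 2731 and 3671, with ratios of -0.71 and 0.63. Both were lowest at BP10, and neither was called. Irf7, which amplifies interferon production, had signals of 180, 130 and 155 and ratios of -0.16 ± 0.23 and 0.46 ± 0.24. Irf3, the factor activated first by sensors and mainly regulated after translation, had 23276, 18719 and 18519, and its ratios were 0.00 and 0.19. Irf1, a factor induced by interferon gamma, had ratios of -0.25 and 0.11.

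The 6 sensor genes included no call. Ddx58 (RIG-I), Ifih1 (MDA5) and Dhx58 (LGP2) detect viral RNA, and Eif2ak2 (PKR) halts translation when it binds double-stranded RNA. Their log2 ratios ran from -0.70 (Dhx58) to -0.40 (Ddx58) at BP10 against control and from 0.51 (Ddx58) to 0.93 (Dhx58) at BP40 against BP10. Trim25, the ligase that acts on RIG-I, had ratios of -0.13 and 0.52. Zbp1, a sensor of Z-form nucleic acid, had signals of 220, 269 and 241 and the highest ratio to the control at BP10 of all members, 0.61 ± 0.22, and 0.65 at BP40. Its second probe was above background on the control array alone.

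The OAS family makes the oligoadenylate messenger that activates RNase L, an activity that OASL1 lacks. Oas1a had signals of 3944 ± 394, 1456 ± 146 and 3963 ± 396 in control, BP10 and BP40. It was lower at BP10 than in the control by a log2 ratio of -1.12 and higher at BP40 than at BP10 by 1.65, which its second probe gave as -0.99 and 1.30. Close paralogs of Oas1a, and of Ifit3 below, may add to such signals. Oasl2 followed with signals of 1247, 418 and 937 and ratios of -1.26 and 1.37. Oasl1, which restrains translation of Irf7, had signals of 743 ± 74.7, 410 ± 41.9 and 1151 ± 115. It was the 1 member called higher at BP40 than in the control, with a log2 ratio of 1.15 ± 0.20, and its ratio to BP10 was 1.70. Oas2 was near constant, with signals of 157, 117 and 117 and ratios of at most 0.20. Oas3 ran the other way at BP40, with signals of 159, 65.5 and 37.8, the last not well above background. With the deposited background correction it was at least 2.93-fold lower at BP40 than in the control, the 1 lower call in that comparison. With normexp its log2 ratio was -0.51, and that call was lost.

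IFIT proteins bind viral RNA that lacks the host cap. Ifit1 had signals of 352 ± 36.0, 147 ± 17.0 and 404 ± 41.1, and Ifit3 had 711, 323 and 616. At BP40 against BP10 their log2 ratios were 1.67 and 1.14, both called, and at BP10 against control -0.95 and -0.82, neither called. Ifit2 had signals of 696, 518 and 414. Its ratio to the control was -0.11 at BP10 and -0.23 at BP40, and that between the doses -0.12, so it was not lowest at BP10. The 3 genes are neighbours on chromosome 19 of the mm9 build, with the Ifit2 probe at chr19:34650244-34650303, that of Ifit3 at chr19:34663105-34663164 and that of Ifit1 at chr19:34723796-34723855.

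Isg15 encodes a ubiquitin-like protein that is attached to other proteins, and Usp18 the protease that removes it and that also blocks the receptor. Isg15 had signals of 8483 ± 848, 2837 ± 284 and 7268 ± 727 in control, BP10 and BP40, for a log2 ratio of -1.26 at BP10 against control and 1.56 at BP40 against BP10. A second Isg15 probe gave -1.40 and 1.53. Usp18 had signals of 1109 ± 111, 410 ± 42.5 and 1065 ± 107, with ratios of -1.12 and 1.58. In both genes BP10 was the low array, and control and BP40 differed by less than 2-fold.

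The mono-ADP-ribosyltransferase genes Parp9 and Parp14 and the ligase gene Dtx3l, whose product pairs with PARP9, lie together on chromosome 16. Parp14 had signals of 1378, 531 and 1077 and ratios of -1.06 at BP10 against control and 1.23 at BP40 against BP10. Parp9 had 3038, 1135 and 1617, with ratios of -1.11 and 0.72, so it was called lower at BP10 but not higher between the doses. Dtx3l had ratios of -0.72 and 0.62, and its 2 further probes gave -0.39 and -0.91 and then 0.44 and 0.86.

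Among the GTPases, Mx2 had signals of 160 ± 17.7, 49.8 ± 10.4 and 83.2 ± 11.6 and was called lower at BP10, with a log2 ratio of -1.37 ± 0.34. At these dim values the ratio depended on the background correction, and with normexp it was -0.53. Mx1 was not well above background on any array. Gbp2 and Gbp3 encode guanylate-binding proteins that attack vacuoles of pathogens. Gbp3 had ratios of -0.73 and 0.83, whereas Gbp2 had -0.50 and -0.04 and so stayed at its BP10 level at BP40.

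Of the 7 other effectors, 3 were called higher at BP40 than at BP10. Ifi44, a gene of an interferon-induced cytoplasmic protein, had signals of 427 ± 43.4, 140 ± 16.8 and 522 ± 52.8 and the highest ratio between the doses of all members, 2.10 ± 0.23, after -1.29 at BP10 against control. Rtp4, a receptor transporter with antiviral activity, had 2664 ± 267, 708 ± 71.3 and 2369 ± 237, for the lowest ratio to the control at BP10, -1.60 ± 0.20, and 1.95 between the doses. Bst2 (tetherin), which holds budding virions at the cell surface, had 18142 ± 1814, 7490 ± 749 and 16135 ± 1614, with ratios of -0.96 and 1.31. These 3 genes share the low value on the BP10 array, although their call between the doses already places BP10 below BP40. Rsad2 (viperin) and its neighbour Cmpk2, whose products act in 1 nucleotide pathway, were dim, with signals of 51.9, 48.5 and 59.9 and of 90.7, 48.5 and 58.9. Rsad2 was not well above background at BP10. Xaf1, a pro-apoptotic gene, had ratios of -0.57 and 0.64, and Ifi35 0.19 and 0.22.

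**Figure D4:**
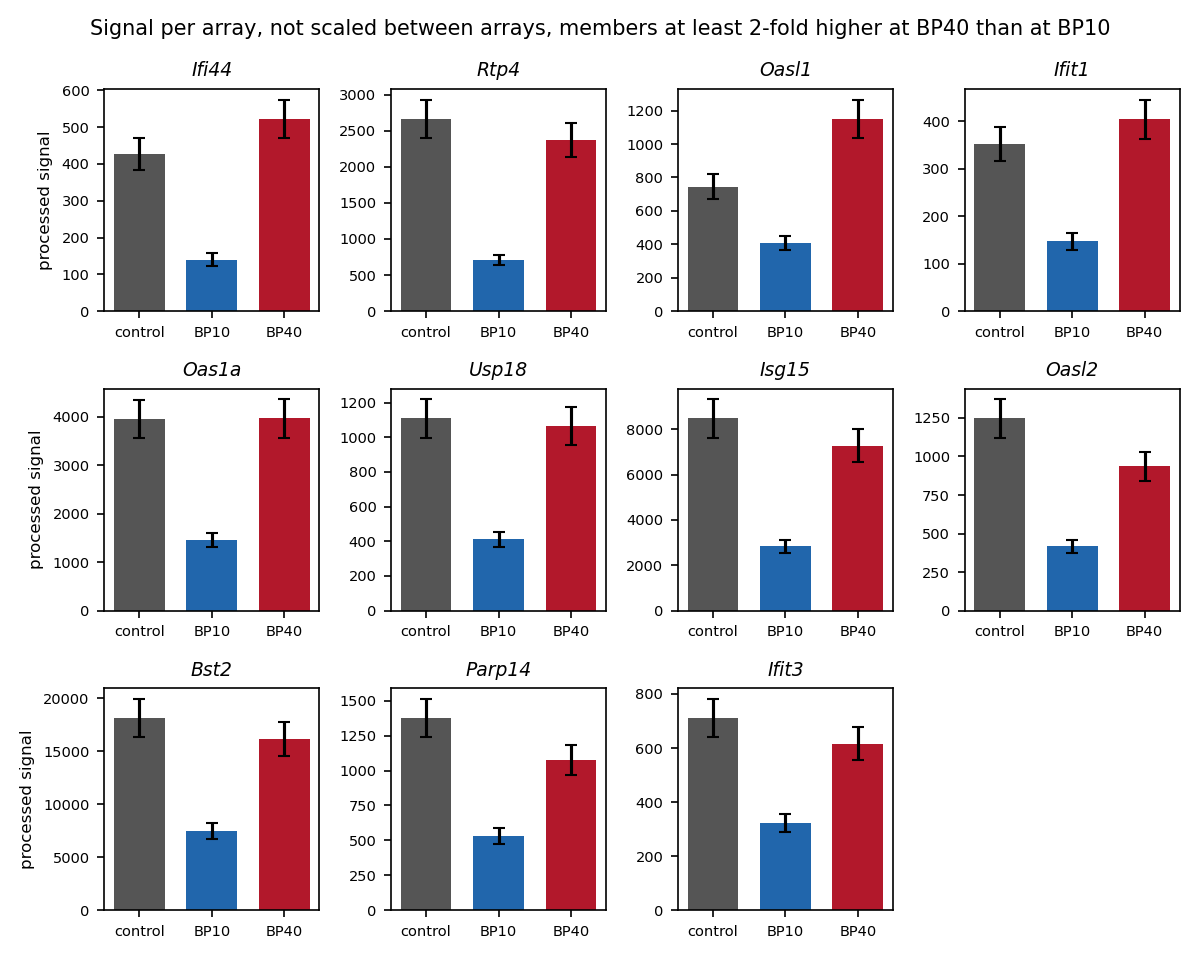
Processed signal (y axis from 0, not scaled between arrays) of the 11 members called higher at BP40 than at BP10, on the control, BP10 and BP40 arrays. Bars are single arrays and error bars the error given by the array software. In each panel the BP10 bar is the lowest, as in Isg15 (8483, 2837 and 7268). That it lies below BP40 follows from the choice of these genes.

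Over the whole set, 14 members were called in at least 1 comparison and 24 in none. Of the 11 members higher at BP40 than at BP10, 7 had also been called lower at BP10 than in the control. At BP40, 10 of the 11 lay within 2-fold of the control, all but Oasl1. Both comparisons with BP10 share that array, which by itself makes such calls overlap. The same counts over all genes are not given here, so these describe the members and show no trait particular to them. Of further probes of members that were above background on both arrays, 8 of 8 had the sign of the probe used for BP40 against BP10, with ratios from 0.01 to 1.53, and 5 of 7 for BP10 against control. For BP40 against control it was 7 of 9, and there Trim25 had the largest gap, 0.64 on the log2 scale, with 0.38 by the probe used and -0.26 by the other.

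**Figure D5:**
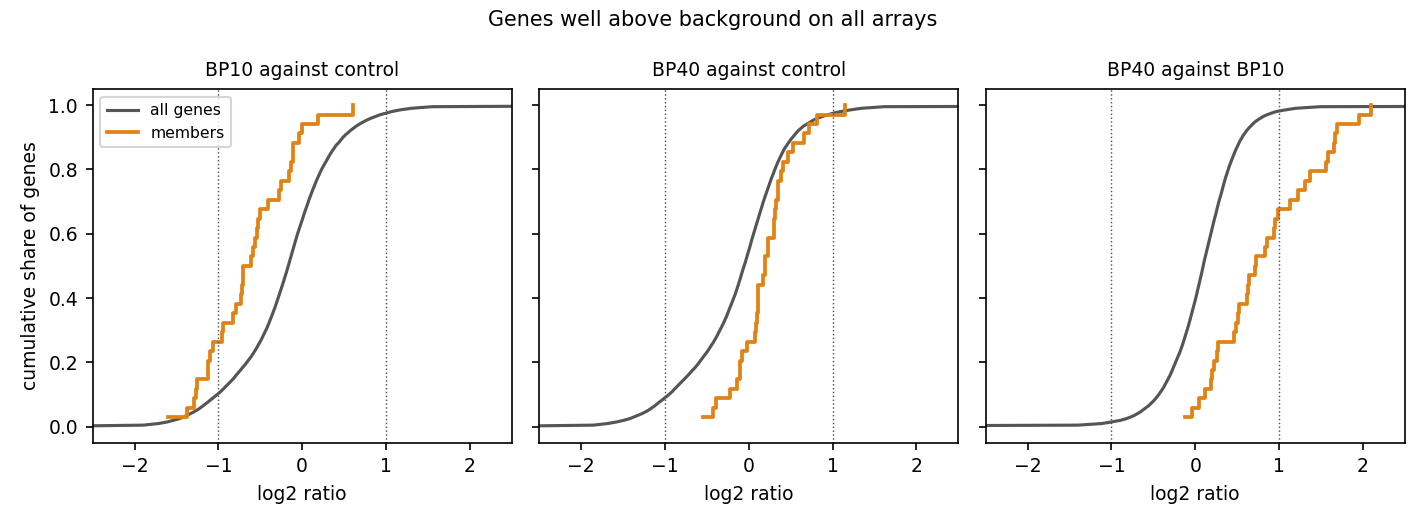
Cumulative share (y axis) of genes against log2 ratio (x axis) for the 34 members (orange) and the 25031 genes (gray) well above background on all arrays, in each comparison. Dotted lines mark 2-fold, and the member curve lies left of the gray one at BP10 against control and right of it at BP40 against BP10, with medians of -0.66 and 0.72.

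Other genes of the pathway were taken from lists written from general knowledge, but with earlier results of these data known, so they are no independent test. Of 54 further interferon-stimulated genes on the array, 50 were above background at BP40 or BP10. Of these 50, 9 were higher and 0 lower at BP40 than at BP10, beside 2.59% and 2.41% of all genes. The median of the 54 was 0.25. The 9 called genes are named next. These were Trim30a (1.49), Ifi203 (1.46), Ifi27l2a (1.43), Phf11d (1.36), Psmb9 (1.21), Ifi204 (1.11), Uba7 (1.07), Psmb8 (1.06) and Cxcl10 (1.04). At BP10 against control 0 were higher and 7 lower, with a median of -0.32, and 7 of the 52 above background on either array is near the 12% of all genes. Ifi27l2a, a mitochondrial interferon-induced gene, had signals of 5849, 1341 and 3124 in control, BP10 and BP40, and Cxcl10, a chemokine, had 520, 492 and 879 and so lacked the dip at BP10.

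Of 29 genes that act before or at the receptor, 1 was higher (Ifna13, 1.16) and 0 lower at BP40 than at BP10, with a median of 0.05, and 1 of the 26 above background on either array is near the 2.59% of all genes. Jak1 had log2 ratios of -0.42 at BP10 against control, 0.02 at BP40 against control and 0.44 between the doses. Tyk2 was higher than the control at both doses, by 1.39 and 1.34, with signals of 475, 999.5 and 835. Of 8 negative regulators of the pathway that are not members, 0 were called between the doses, with a median of 0.15, beside 2.59% higher and 2.41% lower among all genes. Usp18, also a negative regulator, was counted with the members only and was called higher there (1.58). Of 19 genes of MHC class I antigen presentation, which interferon also raises, 3 were higher and 0 lower between the doses. The shares among all genes were 2.59% and 2.41%, and the median of the 19 was 0.36. These were Nlrc5 (1.35), the activator of class I genes, and the immunoproteasome subunits Psmb9 and Psmb8, which the first list also holds.

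Markers of other cells that make or answer interferon were read beside these values as sums of levels relative to the 75th percentile, with and without the brightest gene of each list. The macrophage list, 16 of 16 above background on each array, summed to 40.3 in the control, 34.7 at BP10 and 37.7 at BP40, and without Itgam to 17.3, 17.7 and 20.5. Its median log2 ratio was 0.09 at BP10 against control. At BP40 against BP10, 0 of its 16 genes were called higher and 1 lower, near the 2.59% and 2.41% of all genes. The dendritic list summed to 73.2, 41.4 and 71.7, nearly all of it 1 probe of Siglech, and without it to 0.301, 0.411 and 0.366, with Itgax and Xcr1 not well above background on any array. The lymphocyte list, 4 or 5 of 7 genes above background, summed to 4.73, 3.74 and 4.39, and without Cd3e to 1.69, 2.33 and 2.59. The endothelial list, 4 of 6 above background, summed to 8.40, 6.77 and 8.62, and without Kdr to 0.319, 0.452 and 0.317. The epithelial list, also 4 of 6, summed to 2.89, 2.96 and 2.00, and without Krt18 to 1.1, 0.890 and 0.736. The fibroblast list summed to 1496, 1073 and 1171, and without Col1a2 to 1182, 818 and 834. Without its brightest gene, only the fibroblast list had its lowest sum at BP10. At BP40 against BP10, 7 of its 12 log2 ratios were below 0 and 5 above 0. There 0 of its genes were called higher and 0 lower, beside 2.59% and 2.41% of all genes. At BP10 against control 12 of its 12 ratios were below 0 and 2 were called lower, beside 12% of all genes. Its median log2 ratio there was -0.64, close to the -0.60 of the members. The median of the fibroblast list was -0.05 between the doses and -0.63 at BP40 against control, where the members had 0.64 and 0.19. The part of the fibroblast list in the result was not tested.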

How the data were processed

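Per the file headers, the scanner files that the authors deposited come from Feature Extraction 10.5.1.1, and their intensity per spot is background-corrected and unscaled. A series table repeats these intensities. The paper names GeneSpring GX and no further setting. Log2 intensity was centred on the 75th percentile of each array, leaving out control and outlier spots. Spots of a probe were averaged, and each gene (RefSeq symbol of the accession, or else the name in the file) took the probe well above background on most arrays, then the brightest. Where 1 array was dim, the ratio is a bound against its own signal or the lowest signal well above background, whichever is higher. Members and lists were chosen with earlier results of these data known. Every member is named. Values are given for members called and for the pathway core, and from other lists for genes called between the doses, Jak1 and Tyk2. One item of that rule is not reported here. The signals of Ifi27l2a and Cxcl10, the promoters of Oas1a and Bst2 and the marker sums without the brightest gene were added after their values were seen. The number of arrays, 1 per condition, limits the precision. Alternatives were thresholds of 1.5-fold and 3-fold, filters on dim probes, the median of all probes, the series table, quantile normalization, scaling on bright probes, the median or E1A, normexp with an offset of 50, and, chosen after seeing the data, subtraction of the median ratio of genes of like brightness. Python 3.11.15 and limma 3.58.1 in R 4.3.3 were used.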

Additional observations from a re-analysis of the deposited data

Results flagged for a closer look

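The median log2 ratio of the members to the control had opposite signs at the 2 doses, -0.60 at BP10 and 0.19 at BP40, though at BP40 1 member was called higher and 1 lower. Of the 34 members above background on all arrays, 22 had the order BP10, control, BP40. With 1 array per dose this difference was not tested, both ratios share the control array, and E1A scaling turned the median at BP40 to -0.60.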

How the results depend on the processing

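Of 102 medians and counts recomputed under the alternatives, 72 kept their direction and stayed within a tolerance, and 30 did not. Some of the 72 could not differ. The series table repeats the same intensities, and the medians without a filter on dim probes are the main medians. The tolerance was 1.5 times for a count and the median SD between 2 probes of a gene (0.29, 0.22 and 0.21) for a median. No paired analysis was possible because there was a single array for every condition, and for the same reason no replicate could be left out. Scaling on E1A gave member medians of -0.60 at BP40 against control and -0.30 at BP40 against BP10. In the former 0 members were higher and 5 lower, beside 0.65% and 40.9% of all genes. In the latter 2 were higher and 3 lower, beside 0.45% and 33.8%. At BP10 against control 5 were lower, beside 8.57%. Scaling on the median of gene probes gave medians of -0.27 at BP10 and 0.54 at BP40 against control. It left 2 lower members at BP10 and 5 higher at BP40, beside 5.12% and 6.87% of all genes. At 1.5-fold, 1 member was higher and 20 lower at BP10 against control, beside 7.96% and 25.4% of all genes. At that threshold 5 were higher at BP40 against control, beside 8.17%. At BP40 against BP10 21 were higher and 1 lower, beside 10.3% and 7.28%. At 3-fold, 1 was lower at BP10 against control, beside 2.28% of all genes. At BP40 against control 0 were higher and 0 lower, beside 0.96% and 2.00%. At BP40 against BP10 5 were higher, beside 0.76%. Quantile normalization gave 1 higher member at BP10 and 3 at BP40 against control, beside 6.09% and 6.06% of all genes. Subtraction of the median of genes of like brightness, chosen after seeing the data, gave 2 higher and 5 lower at BP10 against control. It gave 4 higher at BP40 against control. The shares of all genes were 6.66% and 6.27% at BP10 and 5.90% at BP40. With normexp, 5 were lower at BP10 and 0 at BP40 against control, beside 3.25% and 1.98% of all genes. With both arrays required above background, 0 were lower at BP40 against control, beside 9.29% of such genes. Without a filter on dim probes, and with the median of all probes, 1 was lower at BP40 against BP10, beside 4.12% and 3.14% of all genes. The causes were not tested. Dim members, among them Mx2, Oas3, Ifnb1, Rsad2 and Cmpk2, are limited by their signal over background.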
